A study of Rattus norvegicus with 9 samples.

Results

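The monocarboxylate transporter family was examined through 5 genes of the solute carrier 16 group, Slc16a1, Slc16a6, Slc16a7, Slc16a11 and Slc16a13, among 30562 genes in the count table. They were taken by gene name, with each name held by a single ID, and 14 Slc16 genes were listed in all. The set was selected on measured values, without a named comparison, and the higher level of Slc16a13 in ChryM than in Model was already known. Values of Slc16a13, and those of the other members in ChryM against Model, are therefore given as descriptions without a test. Genes outside the set were tested in all 3 comparisons.

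Poly(A) RNA was measured in the hippocampal region of male Sprague-Dawley rats, 6 to 8 weeks old before acclimatization, in 3 groups of 3 libraries. ChryM rats received chrysophanol, a plant anthraquinone, by gavage for 14 days. Model rats were fed a high-fat diet for 4 weeks, injected intraperitoneally with 50 mg/kg of streptozotocin, which destroys pancreatic beta cells, accepted at a fasting glucose of at least 16.7 mmol/L, and then exposed to unpredictable mild stress for 5 weeks. Ctrl rats were the normal control group. That ChryM rats had also gone through the model protocol follows from the series title, and the sources used here do not state their dose. A stress-only, a diabetes-only or a chrysophanol-only group was not analysed here, so the model's diabetes and stress cannot be told apart. Gavage is stated for ChryM only, so chrysophanol cannot be told apart from the gavage itself or its vehicle.

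Monocarboxylate transporters (MCTs) carry lactate, pyruvate and ketone bodies across cell membranes together with a proton, in whichever direction the gradients favour. In rodent brain MCT1, encoded by Slc16a1, is known from capillary endothelium, astrocytes and oligodendrocytes, and MCT2, encoded by Slc16a7, is the main neuronal form. Several family members reach the membrane only with a chaperone of the basigin family. SLC16A11 and SLC16A13 lie side by side in the human genome, at a locus associated with type 2 diabetes.

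Library totals ran from 631119 to 866048 counts, a low depth for a transcriptome, and 7073 genes had enough counts to be tested. The labels do not tie libraries to animals, so a p-value here reflects the spread from library to library, which may be no more than technical. Of 8 hippocampal marker genes, 7 were detected and Spink8 had no count in any library. The dentate granule genes C1ql2 and Prox1 had 15 to 55 and 0 to 5 counts per library, and the CA1-enriched Wfs1, Fibcd1 and Zbtb20 had 13 to 76, 44 to 64 and 0 to 3, all 5 named after their values were seen. The pyramidal neuron gene Neurod6, the most abundant of the list, had 46 to 74. By group, Wfs1 had 58 to 76 in ChryM, 13 to 22 in Model and 47 to 74 in Ctrl. C1ql2 had 25 to 55 in ChryM, 15 to 17 in Model and 30 to 33 in Ctrl. Neurod6 overlapped between groups, at 58 to 74 in ChryM, 47 to 73 in Model and 46 to 73 in Ctrl. Summed markers of oligodendrocytes, 10 of 10 detected, were 15100 to 16500 CPM (counts scaled to a common library total) in ChryM, 8510 to 9420 in Model and 15500 to 16700 in Ctrl. Summed choroid plexus markers were 42.7 to 47.8 CPM in ChryM, 3.03 to 6.47 in Model and 1550 to 1620 in Ctrl, with 4 of the 8 markers at 0 in ChryM and 4 of the 8 at 0 in Model. In tissue, fewer cells of a type and less RNA per cell cannot be told apart.

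Of the 5 members, 3 had an entry in the RefSeq promoter table of rat assembly GRCr8, Slc16a1, Slc16a7 and Slc16a11. Below stand the windows of 250 bases before to 50 bases after the listed start for Slc16a11 and Slc16a1. Slc16a11 is given because its start lies inside the annotated gene Slc16a13, and Slc16a1 as the member with a tested change. In RefSeq GRCr8 the span of Slc16a1 runs from 194805556 to 194832966, so its window lies inside the gene, not at its first base. Capitals mark matches to 4 motifs searched on both strands: CACGTG (the E-box), GGGCGG (the GC box), CCAAT (the CCAAT box) and TATAAA (the TATA box).
Slc16a11 (GRCr8, chr10:55427705-55428004, plus strand): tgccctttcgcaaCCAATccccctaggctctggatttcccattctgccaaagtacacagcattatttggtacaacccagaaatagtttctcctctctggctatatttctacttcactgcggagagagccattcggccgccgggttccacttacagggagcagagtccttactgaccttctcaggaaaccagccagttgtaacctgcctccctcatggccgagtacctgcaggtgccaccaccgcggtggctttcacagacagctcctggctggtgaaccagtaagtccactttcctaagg
Slc16a1 (GRCr8, chr2:194812410-194812709, plus strand): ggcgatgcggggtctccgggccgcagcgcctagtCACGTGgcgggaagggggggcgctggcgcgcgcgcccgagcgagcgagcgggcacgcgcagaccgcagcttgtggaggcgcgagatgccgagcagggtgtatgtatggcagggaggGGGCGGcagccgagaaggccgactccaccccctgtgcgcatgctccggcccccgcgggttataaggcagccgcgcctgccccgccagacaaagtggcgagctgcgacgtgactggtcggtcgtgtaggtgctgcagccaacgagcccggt

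The Slc16a1 window held 39 CpG dinucleotides at 72.7% G and C. The Slc16a11 window held 8 at 53.3%, against a median of 7 and 51.7% over all 33469 promoters of that length. The Slc16a1 window held 1 E-box and 1 GC box, at positions 35 to 40 and 151 to 156 from its first base, and the Slc16a11 window held 1 CCAAT box, at positions 14 to 18. None of these matches overlapped another. Of all promoters of that length, 6.42% held the E-box, 33.1% the GC box, 37.5% the CCAAT box and 14.2% the TATA box. A match is a description of the letters and not a measured binding site.

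Per gene length, Slc16a13 was the most abundant member and Slc16a7 the least. In FPKM (counts over the deposited gene length and the library total) Slc16a13 averaged 59.9 over the 9 libraries, above 97.2% of all genes in the table. Slc16a11 followed at 25.4 FPKM, Slc16a6 at 7.88 FPKM, Slc16a1 at 6.87 FPKM and Slc16a7 at 0.251 FPKM. The ranges of Slc16a13, from 34.8 to 85.9 FPKM, and Slc16a11, from 19.8 to 29.8 FPKM, did not meet, whereas those of Slc16a6, from 6.80 to 9.68 FPKM, and Slc16a1, from 3.16 to 10.4 FPKM, overlapped. These levels rest on the deposited lengths, which were 8654 bases for Slc16a13 and 10556 bases for Slc16a11, longer than 97.4% and 98.6% of all gene lengths in the table. The length deposited for Slc16a11 exceeds the whole span of that gene in RefSeq GRCr8, while the sources used here do not name the build and annotation behind the files.

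**Figure D1:**
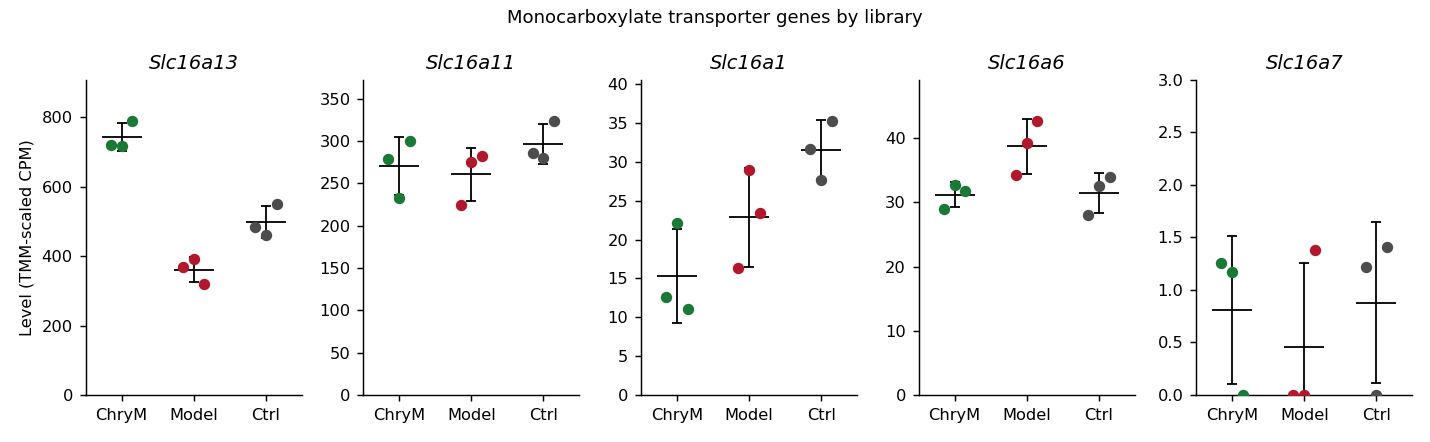
Levels of the 5 genes in CPM scaled by the trimmed mean of M-values, 1 point per library, in ChryM, Model and Ctrl; the line and bar give mean and SD of 3 libraries, and each panel has its own axis from 0. Slc16a13 separates all 3 groups, with ChryM at 718 to 790, Model at 321 to 393 and Ctrl at 462 to 549, whereas the groups of Slc16a11 overlap.

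Slc16a13 encodes MCT13, studied in mice as a lactate carrier of liver. Its level, in CPM scaled by the trimmed mean of M-values, was 720, 718 and 790 in ChryM, 370, 393 and 321 in Model, and 484, 462 and 549 in Ctrl. Every ChryM library stood above every Ctrl library, and every Ctrl library above every Model library. Of the 7073 genes tested, 31 (0.438%) had that order in every library, and 23.6% had no overlap between ChryM and Model in either direction. In group means, Slc16a13 was at 743 ± 41.0 CPM in ChryM, 361 ± 36.8 CPM in Model and 498 ± 45.1 CPM in Ctrl (SD, n = 3 each). The log2 fold change was 1.04 ± 0.09 (SE) for ChryM over Model, 0.58 ± 0.08 for ChryM over Ctrl and -0.47 ± 0.09 for Model over Ctrl. Given the library totals, the variance of the raw counts was 0.583 times the counting variance in ChryM, 2.19 times in Model and 1.38 times in Ctrl. Of the 10 oligodendrocyte markers edgeR called 7 higher and 0 lower in ChryM against Model, beside 3.86% and 4.41% of all genes tested. In ChryM against Ctrl it called 1 higher and 5 lower, beside 9.83% and 8.96% of all. In Model against Ctrl it called 0 higher and 10 lower, beside 7.04% and 5.39% of all. The 1 higher in ChryM than in Ctrl was Mobp, the most abundant of the list, at 0.25 on the log2 scale (edgeR adjusted p = 0.00394). Their part in the levels of Slc16a13 was not tested.

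Slc16a11 encodes MCT11, described as a proton-coupled pyruvate carrier in human cells. Its level was 279, 233 and 300 CPM in ChryM, 225, 275 and 282 CPM in Model, and 286, 280 and 324 CPM in Ctrl. The groups overlapped in each of the 3 comparisons. The log2 fold change of ChryM over Ctrl was -0.13 ± 0.10 (95% interval -0.37 to 0.10, adjusted p = 0.368 by the quasi-likelihood test of edgeR, where an adjusted p under 0.05 is a call). That of Model over Ctrl was -0.18 ± 0.10 (95% interval -0.42 to 0.07, edgeR adjusted p = 0.276). With library totals in place of the scaling, which moved the median of all genes from -0.018 to -0.138 in Model against Ctrl, it was -0.30 and called (edgeR adjusted p = 0.0241). ChryM over Model stood at 0.04 ± 0.10, and it was negative in 2 of 18 alternatives.

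The split of counts between the overlapping pair was described next, because Slc16a11 lies inside Slc16a13 in RefSeq GRCr8. The libraries are strand-specific, but the sources used here name no counting tool or strand setting, so the share of reads that belongs to each gene cannot be told apart. Slc16a13 held 72.1%, 75.5% and 72.5% of the pair's counts in ChryM, 62.2%, 58.8% and 53.2% in Model, and 62.8%, 62.3% and 62.9% in Ctrl. The Wilson 95% intervals of the ChryM libraries, from 68.9% to 78.3% together, lay above those of every Model and Ctrl library, which reached 67.0%. Intervals cover counting error only. The set was selected with the higher Slc16a13 in ChryM than in Model known, so this separation is a description without a test. Model and Ctrl intervals overlapped in 2 of the 3 Model libraries for every Ctrl library, and Model 3, at 48.5% to 57.8%, lay below all of Ctrl.

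Counted as a single feature, the pair was at 1010 ± 70.6 CPM in ChryM, 622 ± 40 CPM in Model and 795 ± 68.7 CPM in Ctrl (SD, n = 3 each). Its log2 fold change was 0.70 ± 0.08 for ChryM over Model, 0.35 ± 0.07 for ChryM over Ctrl and -0.35 ± 0.08 for Model over Ctrl. The pair kept the direction of Slc16a13 in each comparison, at a smaller size. This was largely fixed in advance, since Slc16a13 held a mean of 58.1% to 73.3% of the pair's counts by group and Slc16a11 changed little. It made up 92.6% to 94.5% of all Slc16 counts in ChryM libraries, 87.4% to 89.7% in Model and 89.9% to 90.2% in Ctrl. Bcl6b, the nearest neighbour, had 0 to 1 counts per library in ChryM, 1 to 3 in Model and 1 to 6 in Ctrl.

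**Figure D2:**
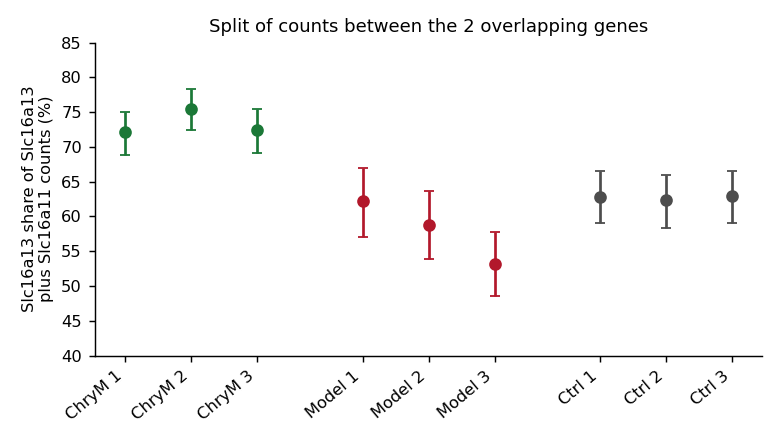
Share of Slc16a13 in the summed counts of Slc16a13 and Slc16a11, in percent, per library; bars are Wilson 95% intervals and the axis starts at 40. ChryM libraries sit between 72.1% and 75.5%, above Model libraries at 53.2% to 62.2% and Ctrl libraries at 62.3% to 62.9%. These shares are a description without a test.

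Slc16a1, the gene of MCT1, fell in ChryM against Ctrl, as did 8.96% of all genes tested. Its counts were 10, 19 and 8 in ChryM, 10, 17 and 17 in Model, and 26, 23 and 25 in Ctrl. In scaled CPM this was 12.6, 22.2 and 11.1 in ChryM, 16.3, 29.0 and 23.4 in Model, and 31.7, 27.7 and 35.3 in Ctrl. All ChryM libraries lay below all Ctrl libraries, a separation found in either direction in 31.7% of the genes tested, while Model overlapped both other groups. ChryM over Ctrl was -1.0 ± 0.29 on the log2 scale (edgeR adjusted p = 0.00609), a ratio of scaled summed counts of 0.497 with an exact 95% counting interval of 0.325 to 0.747. Without ChryM 3 the change was -0.84 and was no longer called (edgeR adjusted p = 0.0527), and DESeq2 gave the gene no adjusted p. Model over Ctrl was -0.46 ± 0.28 (95% interval -1.14 to 0.22, edgeR adjusted p = 0.327). ChryM over Model was -0.55 ± 0.33.

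Slc16a1 is the member without an overlapping gene in RefSeq GRCr8. Markers of cell types known to carry MCT1 moved beside it as follows. Summed endothelial markers, 6 of 8 found in the table, were 50.2 to 63.5 CPM in ChryM, 61.8 to 89.3 in Model and 77.2 to 102 in Ctrl. Summed astrocyte markers were 871 to 910 CPM in ChryM, 902 to 998 in Model and 1040 to 1210 in Ctrl. Summed oligodendrocyte markers, given above, were lowest in Model and overlapped between ChryM and Ctrl. Yet 5 of the 10 were called lower in ChryM than in Ctrl, against 8.96% of all genes tested. The part of these cell types in the lower Slc16a1 level was not tested.

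Slc16a6 encodes MCT7, known in zebrafish as an exporter of ketone bodies from the liver. Its level was 29.0, 32.7 and 31.8 CPM in ChryM, 34.2, 39.3 and 42.7 CPM in Model, and 28, 32.6 and 33.9 CPM in Ctrl. Each Model library stood above each library of both other groups, by a margin that the test did not call in Model against Ctrl. That separation depends on the scaling: in FPKM, which uses library totals, Model 1 at 7.68 lay below Ctrl 2 at 8.07, Ctrl 3 at 7.97 and ChryM 2 at 7.80. Model over Ctrl was 0.31 ± 0.24 (95% interval -0.27 to 0.89, edgeR adjusted p = 0.472). Groups did not overlap in 26.1% of all genes tested in that comparison, and in 23.6% in ChryM against Model. ChryM over Ctrl was -0.01 ± 0.24 (95% interval -0.59 to 0.57, edgeR adjusted p = 0.985), and ChryM over Model was -0.32 ± 0.24. In RefSeq GRCr8 Slc16a6 lies inside Arsg, a lysosomal sulfatase gene with 14 to 19 counts per library in ChryM, 7 to 18 in Model and 7 to 10 in Ctrl. Reads of these genes cannot be told apart with certainty. Amz2, its neighbour, had 10 to 18 counts per library in ChryM, 12 to 19 in Model and 17 to 20 in Ctrl.

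Slc16a7, the gene of the neuronal MCT2, was near the limit of detection. It had 1, 1 and 0 counts in ChryM, 0, 0 and 1 in Model, and 1, 0 and 1 in Ctrl. All 9 values were under the 3 counts that a count of 0 still allows, which is 3.46 to 4.75 CPM per library, so no fold change is given and the gene was not tested. Summed neuronal markers, led by the synaptic gene Snap25, were 2790 to 2890 CPM in ChryM, 3370 to 3420 in Model and 3220 to 3640 in Ctrl. For Slc16a7 itself, a difference between groups was not detectable at this depth.

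Read against the whole table, edgeR called 8.27% of the 7073 genes in ChryM against Model (3.86% higher, 4.41% lower), 18.8% in ChryM against Ctrl (9.83% higher, 8.96% lower) and 12.4% in Model against Ctrl (7.04% higher, 5.39% lower). Of the 5 members 4 passed the count filter, and 3 of those were not Slc16a13. Of these 3, edgeR called 1 in ChryM against Ctrl, where limma on log2(FPKM + 1) also called 1 and DESeq2 called 0 of the 2 to which it gave an adjusted p. In Model against Ctrl edgeR called 0 of 3, with 0 at an unadjusted p under 0.05. There limma also called 0 of 3, and DESeq2 called 0 of the 1 to which it gave an adjusted p.

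**Figure D3:**
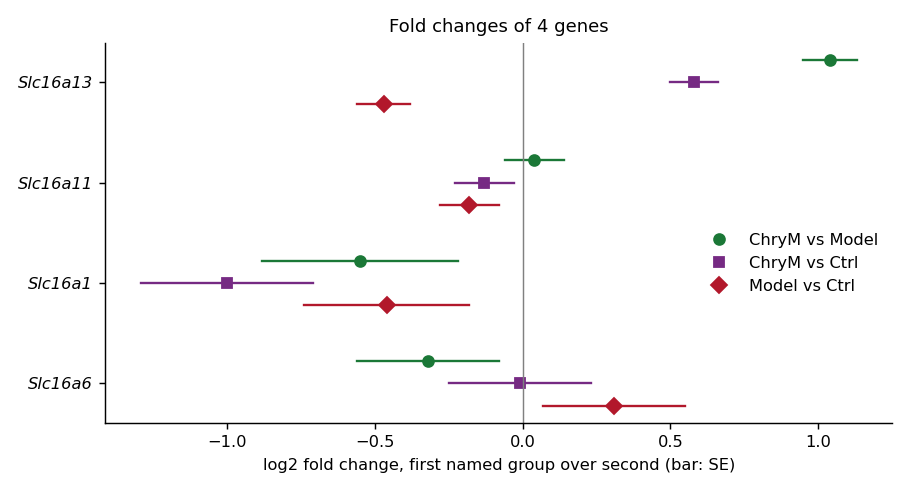
Log2 fold changes of the 4 genes that passed the count filter, with bars of 1 SE, for ChryM over Model, ChryM over Ctrl and Model over Ctrl. Slc16a13 stands at 1.04, 0.58 and -0.47, a description without a test, Slc16a11 between -0.18 and 0.04, Slc16a6 between -0.32 and 0.31, and Slc16a1 at -1.0 for ChryM over Ctrl.

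The genes nearest to Slc16a13 in pattern were Spry2, an inhibitor of receptor tyrosine kinase signalling, Inf2, a formin gene, and RGD1560394. Likeness was the root-mean-square difference of row-centred log2 CPM over 9 libraries, at 0.160, 0.164 and 0.166, against a median of 0.518 over all genes compared. Spry2 was at 27.3 ± 2.13 CPM in ChryM, 12.9 ± 0.911 CPM in Model and 20.0 ± 1.67 CPM in Ctrl (SD, n = 3 each). Nearest to Slc16a11 were Ndufa4, a cytochrome c oxidase gene, at 0.072, Lrrc4b, a synaptic adhesion gene, at 0.097 and Rbmx, an RNA-binding protein gene, at 0.099, against a median of 0.326. Nearest genes were picked for the smallest differences, so for Slc16a13 and Slc16a11 values under the median were fixed in advance. Since Slc16a11 varied little, its nearest genes are others that varied little in the same libraries. Slc16a1, Slc16a6 and Slc16a7 were below the mean of 30 counts set for this description.

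Other Slc16 genes were too low to be tested. Slc16a3, which encodes the lactate exporter MCT4, had 21 counts in ChryM, 9 in Model and 11 in Ctrl, with a ratio of ChryM to Ctrl of 1.90 (0.874 to 4.36). Slc16a4 had 6 counts in ChryM, 10 in Model and 5 in Ctrl. Slc16a8, the MCT3 gene of retinal pigment epithelium and choroid plexus, had 3 in ChryM, 2 in Model and 4 in Ctrl. Slc16a14 had 4 in ChryM, 0 in Model and 6 in Ctrl, and Slc16a9 had 1 in ChryM, 2 in Model and 2 in Ctrl. Slc16a12, a creatine carrier gene, had a single count, in Ctrl, while Slc16a5 and Slc16a10 had 0 in all 9 libraries.

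**Figure D4:**
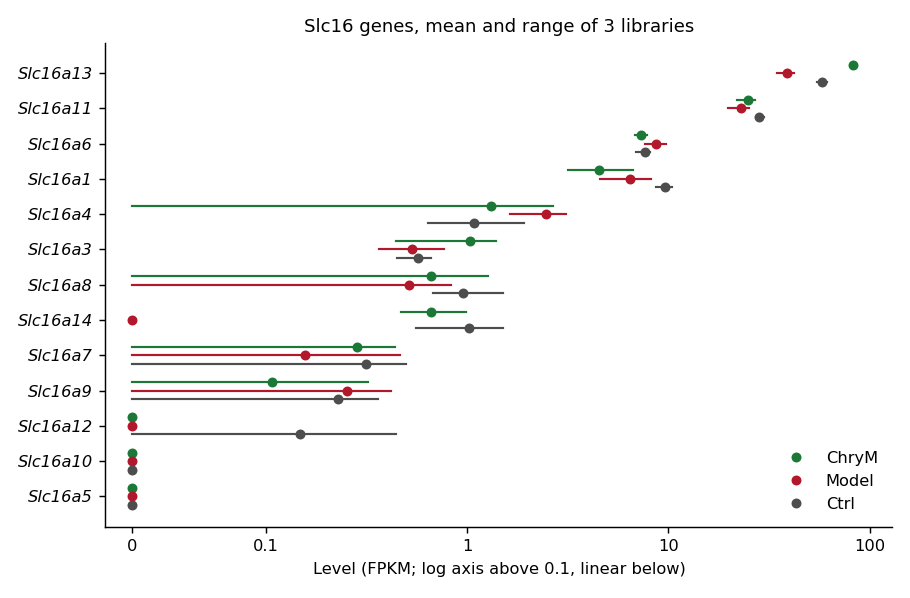
Levels in FPKM of the 5 members and the other Slc16 genes named here, as mean (point) and range (line) of 3 libraries in ChryM, Model and Ctrl; the axis is logarithmic above 0.1 and linear below. Slc16a13 and Slc16a11 lie above the other genes drawn in every group, and Slc16a5 and Slc16a10 sit at 0.

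Chaperones were next in the list of related genes, which was chosen with earlier results of these data known. Bsg, encoding basigin, the partner of MCT1 and MCT4, was at 439 ± 18.3 CPM in ChryM, 476 ± 39.8 in Model and 494 ± 18.8 in Ctrl (SD, n = 3 each). In the main fit no comparison was called (edgeR adjusted p = 0.498 for ChryM over Model, 0.136 for ChryM over Ctrl and 0.752 for Model over Ctrl). Every ChryM library lay below every Ctrl library, where 31.7% of the genes tested did not overlap in either direction. Of 18 alternatives, 1 called Bsg lower in ChryM than in Ctrl. Nptn, encoding the basigin relative neuroplastin, fell in Model against Ctrl by 0.48 ± 0.14 on the log2 scale (edgeR adjusted p = 0.00731), with 111, 85.4 and 106 CPM in Model and 139, 144 and 143 CPM in Ctrl. Without Model 2 that call was lost (edgeR adjusted p = 0.0945). Nptn stood at -0.29 ± 0.13 for ChryM over Ctrl (edgeR adjusted p = 0.0905), called in 2 of 18 alternatives. For ChryM over Model it stood at 0.19 ± 0.14 (edgeR adjusted p = 0.503). Emb, encoding embigin, the partner of MCT2, was not tested, with 17 counts in ChryM, 18 in Model and 29 in Ctrl. Bsg and Nptn each overlap another gene in RefSeq GRCr8.

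Of 19 genes of lactate and pyruvate metabolism, 10 were tested. In ChryM against Ctrl 1 rose and 2 fell, where 9.83% of all genes tested were called higher and 8.96% lower. The median log2 fold change of the 10 was -0.12 against -0.01 over all genes tested. Ldha, the lactate dehydrogenase subunit of glycolytic tissue, fell with 113, 134 and 105 CPM in ChryM and 178, 193 and 170 CPM in Ctrl, by 0.61 ± 0.12 on the log2 scale (edgeR adjusted p = 2.04e-05). Ldhb, the subunit of oxidative tissue, rose by 0.28 ± 0.09 (edgeR adjusted p = 0.0226), with 342, 308 and 342 CPM in ChryM and 291, 257 and 269 CPM in Ctrl. Thus the 2 subunit genes differed from Ctrl in opposite directions, although Ldhb lost its call in 7 of 18 alternatives, library totals and DESeq2 among them (edgeR and DESeq2 adjusted p = 0.0832 and 0.0686), and in the edgeR fits that left out ChryM 1, ChryM 3 or Ctrl 2 (adjusted p = 0.0947, 0.0993 and 0.118). Dld, a shared subunit of the pyruvate dehydrogenase complex, fell by 0.74 ± 0.19 (edgeR adjusted p = 0.00123).

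In Model against Ctrl 1 of these 10 genes rose and 1 fell, where 7.04% of all genes tested were called higher and 5.39% lower. Their median was -0.12 against -0.018. Ldhb rose by 0.41 ± 0.09 on the log2 scale (edgeR adjusted p = 0.000674), with 347, 350 and 384 CPM in Model, while Ldha stood at -0.25 ± 0.12 and was not called (edgeR adjusted p = 0.176). Dld fell by 0.56 ± 0.19 (edgeR adjusted p = 0.0326), a call that was lost when Ctrl 1, Ctrl 2 or any 1 Model library was left out (edgeR adjusted p = 0.0607 to 0.174). ChryM against Model had 0 of the 10 called by edgeR, against 8.27% of all genes tested. Of the 10, 3 had an unadjusted edgeR p under 0.05, as had 1368 of the 7073 genes tested.

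Of 6 genes of ketone body metabolism, 3 were tested. Oxct1, the mitochondrial enzyme that starts ketone body use outside the liver, fell in ChryM against Ctrl by 0.73 ± 0.21 on the log2 scale (edgeR adjusted p = 0.00615), with 32.8, 40.8 and 26.3 CPM in ChryM and 45.1, 73.6 and 48.1 CPM in Ctrl. That call was lost in 5 of 18 alternatives, among them DESeq2 (adjusted p = 0.122) and the fits without ChryM 3 or Ctrl 2, where edgeR gave adjusted p = 0.0587 and 0.214. In Model against Ctrl Oxct1 stood at -0.58 ± 0.22 (edgeR adjusted p = 0.0608), and edgeR called it with library totals (adjusted p = 0.0188) and when Ctrl 1, Ctrl 3 or Model 1 was left out (0.0359, 0.044 and 0.0248). The other 2 tested genes were not called in any comparison (edgeR adjusted p = 0.366 to 0.916). Neither of the 2 listed sodium-coupled monocarboxylate carriers had a count in any of the 9 libraries.

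**Figure D5:**
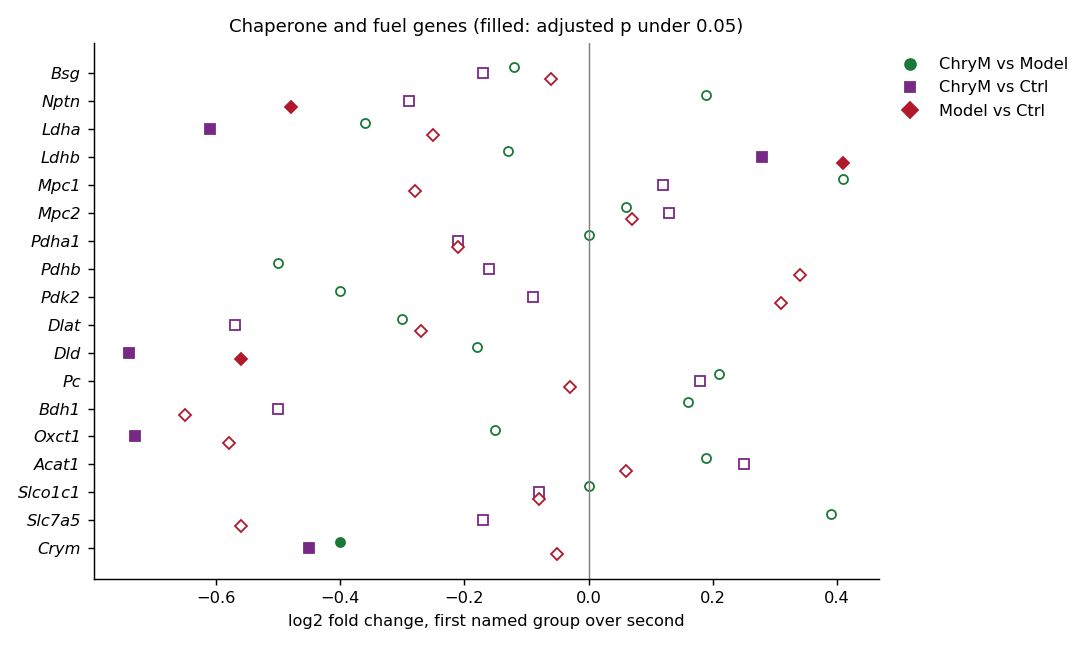
Log2 fold changes of the tested chaperone, lactate, pyruvate, ketone body and thyroid hormone genes other than Ttr, for ChryM over Model, ChryM over Ctrl and Model over Ctrl; filled symbols had an edgeR adjusted p under 0.05. Ldhb lies above 0 for ChryM over Ctrl and Model over Ctrl, and Ldha, Dld and Oxct1 lie below 0 in all 3 comparisons.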

How the data were processed

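RNA of the hippocampal region was measured in 9 libraries, 3 per group, with groups from the labels. The authors deposited whole-number read counts for each gene and, in a second table with gene lengths, FPKM values, per the file headers. FPKM equalled count over length and total within 1e-09. HISAT2 and DESeq2 are named without version, per the submitters' processing notes, and the dUTP strand-specific kit per the labels' protocols.

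Genes were kept with filterByExpr (7073), scaled with the trimmed mean of M-values and fitted on all 9 libraries with edgeR 4.0.16 (R 4.3.3; glmQLFit, robust), two-sided, with Benjamini-Hochberg adjustment over all genes tested and a threshold of 0.05. Each SE is the one implied by the F statistic, or the Poisson SE where that was larger. The 95% interval of a log2 fold change takes that SE with a t value at 6 residual degrees of freedom. The test itself also shares information on spread between genes, so intervals and p-values need not match. CPM of single genes are scaled; marker sums are CPM of the library total. The script was tested on simulated counts. DESeq2 1.42.0 and limma 3.58.1 were alternatives, with other scalings, filters, a replicate block and each library left out.

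The members, lists, alternatives and naming rule (members, Slc16 genes, chaperones, called list members, overlapping genes and 3 nearest patterns) were chosen with earlier results of these data known. Overlaps come from RefSeq GRCr8. Tested genes had a median of 19 to 27 counts in a library. A related gene is not reported here.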

Additional observations from a re-analysis of the deposited data

How the results depend on the processing

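Each of the 4 tested genes was refitted under up to 18 alternatives per comparison. Slc16a13 kept its direction in all 18 of each comparison, at 0.96 to 1.10 for ChryM over Model, 0.51 to 0.65 for ChryM over Ctrl and -0.59 to -0.38 for Model over Ctrl. Slc16a1 kept its direction in all 17 that gave it a value for ChryM over Ctrl (-1.38 to -0.84, adjusted p = 0.00220 to 0.0527). Slc16a11 stayed negative in ChryM and in Model over Ctrl, at -0.22 to -0.03 and -0.30 to -0.09. Summing the pair's counts gave 0.70, 0.35 and -0.35 for ChryM over Model, ChryM over Ctrl and Model over Ctrl, in place of 1.04, 0.58 and -0.47 for Slc16a13. That sum rests mostly on Slc16a13 and is no separate check of its direction.

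Calls of members are given for the 3 tested ones other than Slc16a13, on which the set was selected. In Model against Ctrl edgeR called 0 of 3, beside 12.4% of all genes tested. With library totals it called Slc16a11 (adjusted p = 0.0241). In ChryM against Ctrl edgeR called 1 of 3, Slc16a1, beside 18.8% of all genes tested. That call was lost without ChryM 3 (edgeR adjusted p = 0.0527), and DESeq2 called 0 of the 2 to which it gave an adjusted p. Over all genes, 585 were called in ChryM against Model, 1329 in ChryM against Ctrl and 879 in Model against Ctrl. DESeq2 called 262, 591 and 440, in that order. It gave an adjusted p to only 2832 genes in ChryM against Model and 1529 in Model against Ctrl. Its counts therefore cannot be read as shares of the 7073 genes that edgeR tested. On log2(FPKM + 1) limma called 352, 793 and 553, and on log2(FPKM + 0.1) 351, 772 and 521, in that order. The cause of these differences was not tested. Library totals changed the split of higher and lower calls from 273 and 312 to 373 and 252 in ChryM against Model, from 695 and 634 to 520 and 819 in ChryM against Ctrl, and from 498 and 381 to 276 and 655 in Model against Ctrl. In the same order the splits were 106 and 156, 385 and 206, and 359 and 81 with DESeq2, 212 and 140, 345 and 448, and 207 and 346 on log2(FPKM + 1), and 208 and 143, 339 and 433, and 202 and 319 on log2(FPKM + 0.1). Of the 19 related genes tested in the main fit, 2 were called in ChryM against Model, against 8.27% of all genes tested. The number was 1 with library totals, no count filter, DESeq2 or either FPKM scale, and 1 to 2 with single libraries left out. In Model against Ctrl it was 4 (all genes 12.4%), 6 with library totals and 2 to 5 with single libraries left out. In ChryM against Ctrl it was 6 (all genes 18.8%), and 4 to 8 over all alternatives. Same-numbered libraries did not deviate together (r = -0.030 to 0.042), and 2 to 3 of 6 libraries correlated best with their own number. With the replicate number as a block 586, 1317 and 855 genes were called, and no call of a member changed. Counts below 3 per library limit Slc16a7 and most other Slc16 genes, so the absence of a call there says nothing about stability.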

Other observations

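Thyroid hormone handling was read beside the family because MCT10, encoded by Slc16a10, carries these hormones. Of 7 listed genes 4 were tested. Ttr, the transthyretin gene of choroid plexus, had 101 summed counts in ChryM, 6 in Model and 3587 in Ctrl. Crym, which encodes the cytosolic thyroid hormone-binding protein mu-crystallin, fell in ChryM against Ctrl by 0.45 ± 0.12 on the log2 scale (edgeR adjusted p = 0.00191), with 144, 126 and 118 CPM in ChryM and 173, 180 and 178 CPM in Ctrl. ChryM against Model was -0.40 ± 0.12 (edgeR adjusted p = 0.0226), a call lost in 9 of 18 alternatives, with adjusted p up to 0.129.

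Summed microglial markers were 111 to 139 CPM in ChryM, 162 to 179 in Model and 158 to 183 in Ctrl. Summed blood markers, 3 of 4 found in the table, were 99.0 to 107 CPM in ChryM, 65.1 to 84.0 in Model and 330 to 358 in Ctrl, with Alas2 at 0 in Model. Summed hippocampal markers were 327 to 383 CPM in ChryM, 265 to 273 in Model and 325 to 382 in Ctrl. Their part in the levels of the transporters was not tested.

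Arsg, in which Slc16a6 lies, rose in ChryM against Ctrl (0.95 ± 0.35 on the log2 scale, edgeR adjusted p = 0.0429), and lost that call in 9 of 17 alternatives, the replicate block among them (adjusted p = 0.0520).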
